A study of Mus musculus with 10 samples.

Results

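Nrf2 and the proteins that hold it, pair with it or compete with it were followed as 9 genes in RNA-seq counts of the mouse macrophage line RAW264.7. The genes were Nfe2l2, Nfe2l1, Keap1, Cul3, Sqstm1, Bach1, Maff, Mafg and Mafk, found by matching the Ensembl identifier of each row to its symbol. They are 9 of 43432 genes in the table, and all 9 were among the 14172 genes with enough counts to be tested. The 5 conditions had 2 libraries each: solvent alone (DMSO), solvent with lipopolysaccharide (DMSO + LPS), and compound **1** at 3.2, 10 or 32 µM with LPS. Compound **1** is a keto derivative of hexadecenoic acid, obtained from marine cyanobacteria, and carries an α,β-unsaturated ketone, an electrophilic group able to react with thiols. The DMSO conditions held 0.5% of the solvent, LPS was given at 1 µg/mL, and **1** or solvent was added 1 h before it. RNA was collected at 12 h. No library had **1** without LPS, so each dose could be read only on top of LPS. The cells are 1 established line grown in culture, and the labels number 2 biological replicates per condition without saying whether they came from separate cultures, so the p-values measure the spread between these libraries.

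In the textbook scheme, Keap1 holds Nrf2 in the cytoplasm and hands it to a ligase for ubiquitination and degradation by the proteasome. Electrophiles and oxidants modify cysteines of Keap1, newly made Nrf2 escapes degradation, enters the nucleus and pairs with a small Maf protein on antioxidant response elements (AREs). Bach1 pairs with the same small Mafs on the same elements and represses them. Much of this control acts on protein stability and location, which transcript counts do not measure.

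The activators are Nfe2l2 (ENSMUSG00000015839, chr2:75675513-75704641, minus strand), which encodes Nrf2, and Nfe2l1 (ENSMUSG00000038615, chr11:96817414-96829968, minus), which encodes Nrf1, a relative made at the endoplasmic reticulum and known for its control of proteasome genes. Keap1 (ENSMUSG00000003308, chr9:21229730-21239361, minus) encodes the substrate adaptor and Cul3 (ENSMUSG00000004364, chr1:80264923-80340480, minus) the scaffold of the ligase. Sqstm1 (ENSMUSG00000015837, chr11:50199366-50210827, minus) encodes p62, an autophagy receptor that binds Keap1. The repressor gene is Bach1 (ENSMUSG00000025612, chr16:87698945-87733346, plus). The small Mafs, which bind DNA but lack an activation domain of their own, come from Maff (ENSMUSG00000042622, chr15:79346621-79359076, plus), Mafg (ENSMUSG00000051510, chr11:120625117-120633600, minus) and Mafk (ENSMUSG00000018143, chr5:139791513-139802653, plus). Positions are those of the whole gene in GENCODE M21 on GRCm38, the assembly that mm10 names.

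The sequence these factors read is shown where it stood in front of the genes themselves. In RefSeq promoter windows on GRCm38.p6, running from 250 bases before to 50 after a transcription start, the 9 genes had 15 windows. Both strands were searched for the ARE core TGACNNNGC, the AP-1 site TGACTCA, whose first letters the ARE core shares, and the NF-κB site, read as GGGA and TTCC with any 2 bases between. The ARE core was found before 4 of the 9 genes (Nfe2l2, Maff, Mafg and Mafk), against 14% of all genes with a window and 12.4% of 32851 windows. Neither other motif was found before any of the 9, and these were in 5.2% and 1.47% of all windows. The stretches around the match for Nfe2l2 (chr2:75704835-75704913, minus), Maff (chr15:79346449-79346577, plus) and Mafg (chr11:120633701-120633797, minus) follow, read 5′ to 3′ on the strand of the gene, with the match in capitals.
Nfe2l2: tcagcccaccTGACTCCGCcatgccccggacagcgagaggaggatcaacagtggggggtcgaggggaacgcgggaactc
Maff: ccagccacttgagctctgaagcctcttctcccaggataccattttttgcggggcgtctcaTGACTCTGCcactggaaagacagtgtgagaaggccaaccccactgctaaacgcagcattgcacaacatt
Mafg: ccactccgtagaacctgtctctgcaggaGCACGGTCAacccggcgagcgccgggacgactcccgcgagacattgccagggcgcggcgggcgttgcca
The matches began 240 bases before the start for Nfe2l2 and 112 before it for Maff. The Mafg match lay on the opposite strand, 222 bases before the start, and the Mafk match, also on the opposite strand, lay 13 before it. The Nfe2l2 stretch lies within an exon of the noncoding gene E030042O20Rik on the opposite strand, and 30 bases of the Mafg stretch lie in an exon of the long noncoding RNA Gm17586. A match of letters is a description of the window and not evidence of binding.

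Total counts lay between 45966803 and 58976377 per library. All 8 macrophage markers checked were present in each library, with summed levels of 8110 to 12000 CPM (counts relative to the library total scaled by TMM), highest in DMSO and lowest at 32 µM, and T cell markers were at or near 0. The following libraries stood apart. Replicate 1 at 10 µM held 738 reads of the epithelial markers Epcam, Cdh1 and Krt18 (15.9 CPM) and 137 of 3 fibroblast markers (2.94 CPM), and replicate 1 at 3.2 µM held 115 epithelial reads (2.48 CPM), against 0 to 3 in the other 8 libraries. In replicate 2 at 32 µM, Gm42418, a locus that overlaps ribosomal RNA sequence, took 2.46% of the counts, against 0.0419% to 0.207% elsewhere. The part of these in any result was not tested, and results that turned on 1 of these libraries are given without it. In RNA from whole cultures, fewer cells expressing a gene and less RNA per cell cannot be told apart.

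In DMSO, transcript abundance differed widely among the 9 genes. Per length, as RPKM (CPM per kilobase of exon), Sqstm1 stood at 353.3 ± 10.4 (SD, n = 2), far above Nfe2l1 at 50.9 ± 0.589 and Nfe2l2 at 38.0 ± 1.82. Cul3 followed at 27.1 ± 0.936 RPKM and Mafg at 18.5 ± 0.113. Keap1 was at 14.5 ± 0.775 RPKM, Mafk at 11.3 ± 0.0711 and Bach1 at 10.1 ± 0.282. Maff was lowest, at 0.929 ± 0.161 RPKM. The 2 libraries of each gene did not reach those of the next gene in this order. With LPS the order changed, and Maff, at 10.4 ± 0.200 RPKM, stood above Bach1 at 8.35 ± 0.203, while Mafg at 36.5 ± 1.24 stood above Nfe2l2 at 34.3 ± 0.659.

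**Figure D1:**
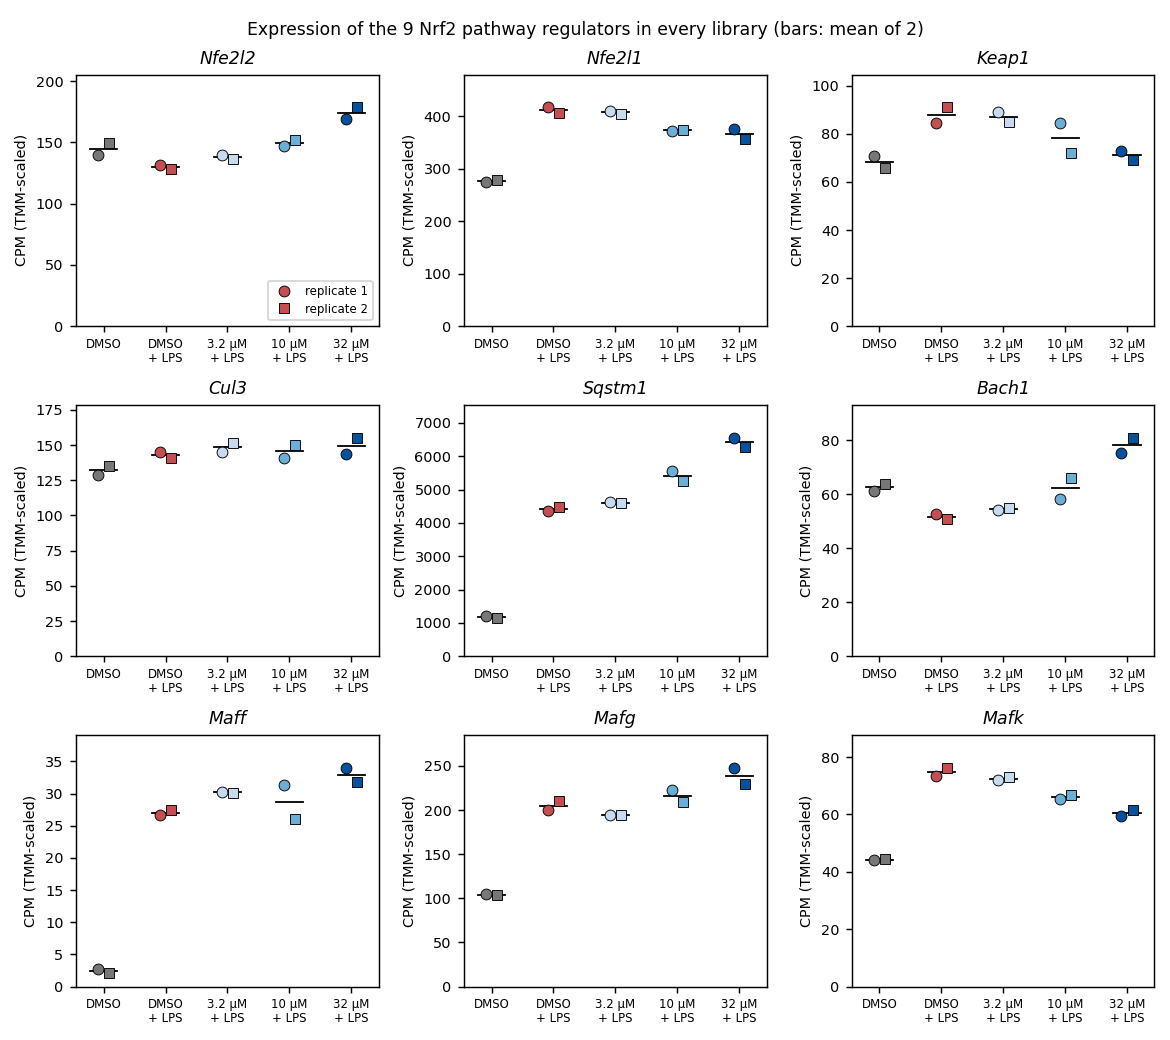
Expression of each of the 9 genes in CPM (TMM-scaled, axis from 0) in all 10 libraries, grouped by condition. Circles are replicate 1, squares replicate 2, and the bar is the mean of the 2. Maff, Sqstm1, Mafg and Mafk stepped up with LPS, Sqstm1, Bach1 and Nfe2l2 were highest at 32 µM, and Mafk with LPS was lowest at 32 µM.

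LPS alone raised the small Mafs and Sqstm1 and moved Nfe2l2 little. Of the 9 genes, 4 were called, all higher, where a call needs a change of 1.5-fold or more and, in edgeR's quasi-likelihood test, p below 0.05 after adjustment by Benjamini-Hochberg over all genes tested. Among all genes tested, 28.2% were called in this comparison and 14.6% were called higher. The median log2 fold change was 0.57 for the 9 genes and 0.003 for all genes tested. At any fold 8 of the 9 passed an adjusted p of 0.05, beside 50.9% of all genes. Of these 6 were higher and 2 lower, beside 25.2% and 25.8% of all genes. The DMSO and DMSO + LPS libraries did not overlap for any of the 9, which held for 76.9% of all genes tested.

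Maff showed the steepest change. Its level was 2.70 and 2.11 CPM in DMSO against 26.7 and 27.4 CPM in DMSO + LPS (log2 fold change 3.485 ± 0.131, SE; adjusted p = 2.57e-07). The counts behind these values were 159 and 120 without LPS and 1526 and 1286 with it. Mafg went from 104.4 and 103.5 CPM to 200.1 and 209.9 CPM (log2 fold change 0.98 ± 0.0558, adjusted p = 2.51e-06). Mafk rose less, from 44.0 and 44.4 CPM to 73.4 and 76.3 CPM (log2 fold change 0.76 ± 0.0445, adjusted p = 3e-06). Scaling by library totals alone put the median of all genes at -0.202 in this comparison, against 0.003, and left 1582 of 4520 calls higher, against 2072 of 3995, while the values given here are relative to a median near 0. Under that scaling Mafk was under 1.5-fold (log2 0.55), Nfe2l1 was at 0.36, Keap1 at 0.156 (adjusted p = 0.149), Bach1 at -0.485 and Nfe2l2 at -0.356.

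Sqstm1 was the most abundant of the 9 in every library. Its 1210 and 1161 CPM in DMSO compared with 4370 and 4474 CPM in DMSO + LPS, a 3.73-fold rise (log2 1.90 ± 0.0426, adjusted p = 1.72e-08). Nfe2l1 rose from 274.6 and 279.1 CPM to 416.9 and 405.3 CPM, which is 1.48-fold (log2 0.57 ± 0.0435, adjusted p = 1.45e-05) and just under the fold needed for a call. Without replicate 2 of DMSO + LPS it was called, at a log2 fold change of 0.59.

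Keap1 also rose, within a narrower range. Levels of 70.8 and 65.7 CPM in DMSO compared with 84.6 and 91.1 CPM in DMSO + LPS (log2 0.36 ± 0.083, adjusted p = 0.00691). That call on p was lost without replicate 2 of DMSO (log2 0.29, adjusted p = 0.0582) or replicate 2 of DMSO + LPS (log2 0.31, adjusted p = 0.0553). Cul3 did not pass the test, at 128.7 and 135.2 CPM against 144.7 and 140.7 CPM (log2 0.11, 95% interval -0.019 to 0.245, adjusted p = 0.139). Bach1 fell, from 61.4 and 63.8 CPM to 52.5 and 50.7 CPM (log2 -0.28 ± 0.0694, adjusted p = 0.0105). It missed the threshold without replicate 2 of DMSO (log2 -0.27, adjusted p = 0.0551) or replicate 2 of DMSO + LPS (log2 -0.255, adjusted p = 0.0741).

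Nfe2l2 itself was the gene with the smallest change among those that passed. Libraries without LPS held 139.5 and 149.2 CPM and those with it 131.9 and 128.4 CPM (log2 fold change -0.15 ± 0.0513, adjusted p = 0.0409). This call held in 9 of 19 alternatives and was lost without DMSO replicate 2 (log2 -0.12, adjusted p = 0.166), either DMSO + LPS replicate (log2 -0.17 and -0.13, adjusted p = 0.0983 and 0.191 without replicates 1 and 2) or either 3.2 µM replicate (log2 -0.151 and -0.15, adjusted p = 0.0753 and 0.0761), and without both libraries with epithelial reads (adjusted p = 0.0788).

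**Figure D2:**
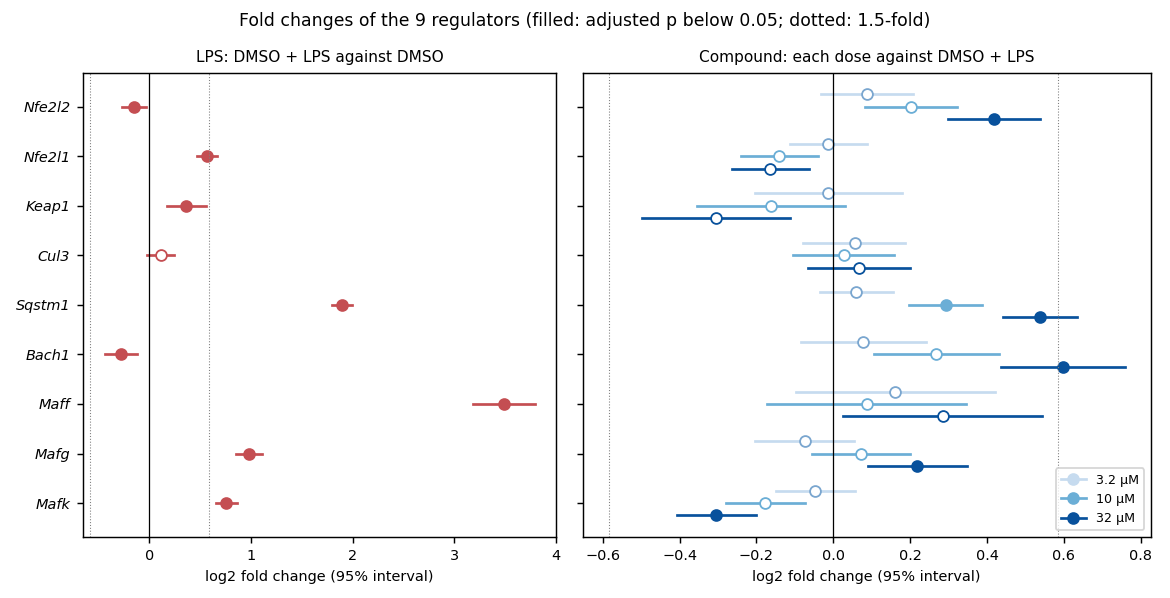
Log2 fold changes of the 9 genes with 95% intervals for LPS (left; DMSO + LPS against DMSO) and for compound **1** (right; each dose against DMSO + LPS). Filled points have an adjusted p below 0.05 and dotted lines mark 1.5-fold. On the left Maff at 3.485 and Sqstm1 at 1.90 lie far from the others, and on the right Bach1 at 32 µM is the only point past the dotted line.

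Compound **1** at 32 µM was compared with DMSO + LPS to ask how the fatty acid changed these transcripts in LPS-treated cells. Bach1, Sqstm1, Nfe2l2 and, near the threshold, Mafg rose, and Mafk fell. Keap1 and Nfe2l1 stood lower without passing the test. One of the 9 genes was called (Bach1), beside 4.18% of all genes tested, of which 1.27% were called higher. With no fold needed, 5 of the 9 passed the adjusted p, against 9.78% of all genes. These were 4 higher and 1 lower, beside 4.06% and 5.72% of all genes. An unadjusted p below 0.05 was found for 8 of the 9 and 22.2% of all genes. The 32 µM and DMSO + LPS libraries did not overlap for 8 of the 9, which was the case for 50.0% of all genes tested. The median log2 fold change was 0.218 for the 9 genes and 0.008 for all genes.

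Bach1 stood at 75.1 and 81.0 CPM at 32 µM and at 52.5 and 50.7 CPM in DMSO + LPS. Both treated libraries were above every other library of the series. The rise was 1.51-fold (log2 0.60 ± 0.0696, adjusted p = 0.00116), at the edge of the fold a call needs. An adjusted p below 0.05 was kept in 19 of 19 alternatives, with log2 fold changes between 0.541 and 0.65. The fold was under 1.5 without DMSO replicate 2 (log2 0.58), DMSO + LPS replicate 2 (0.57), 10 µM replicate 2 (0.58) or 32 µM replicate 2 (0.54), and without a filter on low counts (0.578).

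Sqstm1 reached 6560 and 6281 CPM at 32 µM, above the 4370 and 4474 CPM of DMSO + LPS. This was a 1.45-fold rise with a narrow error (log2 0.54 ± 0.0413, adjusted p = 0.000115). Nfe2l2 rose 1.34-fold, to 169.2 and 178.7 CPM from 131.9 and 128.4 CPM (log2 0.42 ± 0.0513, adjusted p = 0.00152). For both genes the test was passed in 19 of 19 alternatives, and neither reached 1.5-fold in any of them.

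Of the small Mafs, Mafk fell, to 59.5 and 61.7 CPM from 73.4 and 76.3 CPM (log2 -0.305 ± 0.0443, adjusted p = 0.00358), and passed the test in 19 of 19 alternatives. Mafg stood at 247.9 and 229.1 CPM against 200.1 and 209.9 CPM (log2 0.22 ± 0.0552, adjusted p = 0.0467), a result near the threshold that held in 6 of 19 alternatives. It was lost without DMSO replicate 1 or 2 (log2 0.22 and 0.20), DMSO + LPS replicate 1 or 2 (0.18 and 0.25), 3.2 µM replicate 1 or 2 (0.218 for each), 10 µM replicate 2 (0.20) or 32 µM replicate 1 (0.16), and without both libraries with epithelial reads (0.218, adjusted p = 0.0972). Maff was at 34.0 and 31.8 CPM against 26.7 and 27.4 CPM, and did not pass (log2 0.28, 95% interval 0.025 to 0.543, adjusted p = 0.181).

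Neither part of the ligase passed the test. Keap1 held 72.9 and 69.3 CPM at 32 µM and 84.6 and 91.1 CPM in DMSO + LPS, 2 groups that did not overlap (log2 -0.305, 95% interval -0.498 to -0.112, adjusted p = 0.0618). It passed without 10 µM replicate 1 (log2 -0.305, adjusted p = 0.0201) or replicate 2 (-0.32, adjusted p = 0.0211), without both libraries with epithelial reads (-0.305, adjusted p = 0.047), and in 8 of 19 alternatives in all. Cul3 was the only one of the 9 whose libraries overlapped, at 143.8 and 155.3 CPM against 144.7 and 140.7 CPM (log2 0.07, 95% interval -0.065 to 0.2, adjusted p = 0.593). Nfe2l1 stood at 376.6 and 357.1 CPM against 416.9 and 405.3 CPM (log2 -0.16, 95% interval -0.265 to -0.064, adjusted p = 0.0551) and passed without 10 µM replicate 2 (log2 -0.18, adjusted p = 0.0494).

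The lower doses gave smaller differences. At 10 µM against DMSO + LPS none of the 9 was called by edgeR's quasi-likelihood test, its likelihood ratio test or DESeq2. Over all genes these tests called 122 (0.861%), 182 and 173. In the first, 5 of the 9 had an unadjusted p below 0.05, as did 12.1% of all genes. By the quasi-likelihood test Sqstm1 alone passed the adjusted p, as did 2.67% of all genes, with 5572 and 5262 CPM (log2 0.29 ± 0.0412, adjusted p = 0.0105). That result was lost without replicate 1 (log2 0.27, adjusted p = 0.114) or replicate 2 of DMSO + LPS (log2 0.31, adjusted p = 0.0778). The higher Sqstm1 value came from replicate 1, the library with epithelial reads, and the test was not passed when both libraries with such reads were left out (log2 0.25, adjusted p = 0.179), with the 4 libraries compared alone (adjusted p = 0.15) or by the likelihood ratio test (adjusted p = 0.0941). Nfe2l2 had 147.2 and 152.3 CPM (log2 0.20, adjusted p = 0.112) and Bach1 58.2 and 66.1 CPM (log2 0.27, adjusted p = 0.119). Mafk had 65.6 and 66.9 CPM (log2 -0.18, adjusted p = 0.106). By DESeq2's Wald test these 3 genes and Nfe2l1 also had an adjusted p below 0.05, from 0.0292 for Nfe2l1 to 0.0463 for Bach1, each under 1.5-fold. For 6 of the 9 genes the groups did not overlap, against 35.8% of all genes tested.

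At 3.2 µM none of the 9 was called by either edgeR test or DESeq2, and by the quasi-likelihood test none had an unadjusted p below 0.05 and no gene in the table was called (0). Over all genes DESeq2 called 8 and the likelihood ratio test 3. An unadjusted p below 0.05 was seen for 4.23% of all genes. Sqstm1 held 4620 and 4602 CPM, Nfe2l2 139.7 and 136.8 CPM and Bach1 54.02 and 54.97 CPM. The log2 fold changes of the 9 lay between -0.075 for Mafg and 0.161 for Maff. Their 95% intervals allowed changes as large as 0.42 for Maff and 0.24 for Bach1, so a rise of the size seen for Bach1 at 32 µM was outside the interval. Groups did not overlap for 7 of the 9 and for 45.9% of all genes.

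Neighboring doses were also compared with each other. From 10 to 32 µM, Sqstm1 rose by 0.245 ± 0.0412 on the log2 scale (adjusted p = 0.0196), a result lost without 3.2 µM replicate 1 or 2 (log2 0.247 for each, adjusted p = 0.0572 and 0.0574), 10 µM replicate 2 (0.21, adjusted p = 0.0881) or 32 µM replicate 1 (0.22, adjusted p = 0.111). It was also lost without both libraries with epithelial reads (log2 0.287, adjusted p = 0.122), with the 4 libraries compared alone (adjusted p = 0.425) and by the likelihood ratio test (adjusted p = 0.244). Bach1 differed by 0.33 ± 0.0694 (adjusted p = 0.0559) and passed without 10 µM replicate 2 (log2 0.43, adjusted p = 0.0156). Nfe2l2 differed by 0.22 (adjusted p = 0.0901). None of the 9 was called by either edgeR test or DESeq2. Over all genes the quasi-likelihood test called 187 (1.32%), the likelihood ratio test 259 and DESeq2 233. By the quasi-likelihood test Sqstm1 alone passed the adjusted p, as did 2.76% of all genes. By DESeq2 Nfe2l2 (adjusted p = 0.0114) and Bach1 (adjusted p = 0.00366) passed as well, and by the likelihood ratio test Bach1 (adjusted p = 0.0227) but not Sqstm1. An unadjusted p below 0.05 was found for 5 of the 9 and 12.5% of all genes, and groups did not overlap for 6 of the 9 and 32.6% of all genes. From 3.2 to 10 µM, Sqstm1 differed by 0.23 ± 0.0412 (adjusted p = 0.0557) and no member was called by these 3 tests. Over all genes they called 36 (0.254%, quasi-likelihood), 61 (likelihood ratio) and 55 (DESeq2). By the quasi-likelihood test none passed the adjusted p, as 0.903% of all genes did, while Sqstm1 passed by DESeq2 (log2 0.228, adjusted p = 0.000494). In the first of these tests 5 had an unadjusted p below 0.05, as did 8.38% of all genes, and groups did not overlap for 7 of the 9 and 34.2% of all genes.

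Set against cells without LPS, the 32 µM cultures show where each transcript ended. Sqstm1 (log2 2.44 ± 0.0434), Maff (3.77 ± 0.132) and Mafg (1.199 ± 0.0561) were called higher, 3 of the 9 beside 27.1% of all genes. At any fold 8 of the 9 passed the adjusted p and 50.9% of all genes did, and groups did not overlap for 8 of the 9 and 71.4% of all genes. Nfe2l2 and Bach1 stood above their DMSO level, Nfe2l2 by 0.27 ± 0.0513 (adjusted p = 0.00279) and Bach1 by 0.32 ± 0.0692 (adjusted p = 0.00554), both lost under scaling by library totals (log2 0.066 and 0.115). Mafk, at 0.46 ± 0.0445 (adjusted p = 6.72e-05), and Nfe2l1, at 0.41 ± 0.0434 (adjusted p = 0.000113), stayed above theirs. Cul3 passed at 0.18 ± 0.0571 (adjusted p = 0.03), and in 8 of 19 alternatives. It was lost without DMSO replicate 1 or 2 (log2 0.143 and 0.182, adjusted p = 0.164 and 0.0911), 32 µM replicate 2 (0.121, adjusted p = 0.195), or either replicate of DMSO + LPS or 3.2 µM (0.178 to 0.179, adjusted p = 0.0564 to 0.0577), and it changed sign under scaling by library totals (-0.024). Keap1 was at 72.9 and 69.3 CPM with 32 µM and at 70.8 and 65.7 CPM in DMSO (log2 0.06, 95% interval -0.135 to 0.251, adjusted p = 0.601), and the sign of this small difference turned under scaling by library totals (-0.144). Both comparisons of the 32 µM libraries share those libraries and are given side by side.

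Because small Mafs serve both Nrf2 and Bach1, their pool was summed per length. In DMSO the summed level was 30.9 and 30.6 RPKM, of which Mafg made up 60.1% and 60.2%, Mafk 36.5% and 37.2%, and Maff 3.37% and 2.66%. In DMSO + LPS the sum was 64.7 and 67.5 RPKM, with Maff at 15.9% and 15.6%. At 32 µM the sum was 72.5 and 68.9 RPKM, with Mafg at 60.9% and 59.3%, Mafk at 21.03% and 22.97% and Maff at 18.1% and 17.8%. The share of Mafk was thus lowest at 32 µM and highest in DMSO, without overlap between those conditions. The ratio of Nfe2l2 to Bach1 transcripts (RPKM) moved little, from 3.70 and 3.81 in DMSO to 4.09 and 4.12 with LPS, and was 3.67 and 3.59 at 32 µM. Nfe2l2 to Keap1 was lowest with LPS, at 1.93 and 1.74, against 2.43 and 2.81 in DMSO, and highest at 32 µM, at 2.87 and 3.19. These ratios are descriptions of transcripts and carry no test.

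**Figure D3:**
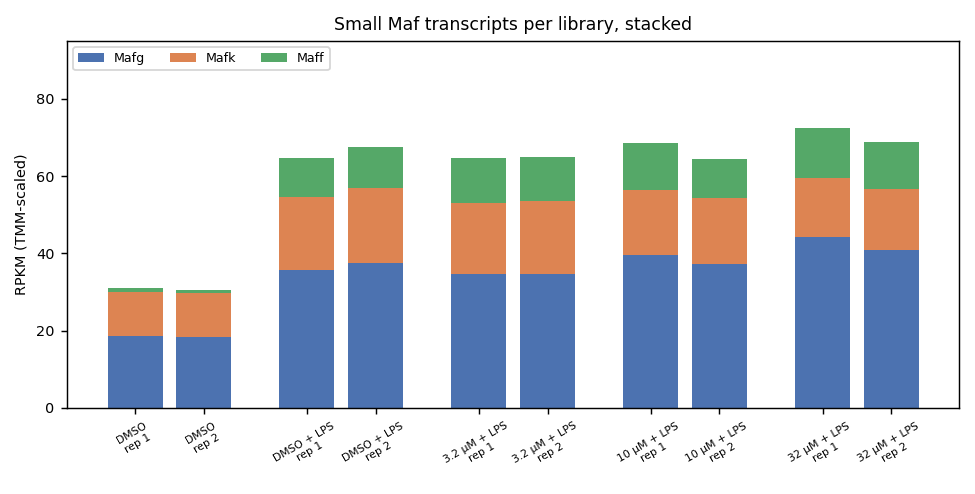
RPKM (TMM-scaled, axis from 0) of Mafg, Mafk and Maff stacked in each library. The sum rose from 30.9 and 30.6 RPKM in DMSO to 64.7 and 67.5 in DMSO + LPS, and the Mafk part shrank at 32 µM while the Mafg part grew.

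Several lists of related genes were counted beside the regulators, to be read against the share of all genes called, 28.2% with LPS (14.6% higher) and 4.18% at 32 µM (1.27% higher). Among 33 Nrf2 target genes (32 tested), 15 were called higher and 0 lower at 32 µM against DMSO + LPS by edgeR's quasi-likelihood test. By adjusted p at any fold 22 were higher and 0 lower, beside 4.06% and 5.72% of all genes. Their median log2 fold change was 0.63 against 0.008 for all genes. At 10 µM 4 were called higher and 0 lower, where 0.861% of all genes were called. At 3.2 µM 0 were called and 3 had an unadjusted p below 0.05, as did 4.23% of all genes. Nqo1, which reduces quinones, went from 2.62 ± 0.055 CPM to 16.2 ± 0.158 CPM (SD, n = 2; log2 2.63, adjusted p = 6.36e-06). Gclm, a subunit of the enzyme that starts glutathione synthesis, rose by 0.88 on the log2 scale (adjusted p = 0.000154), and Srxn1, sulfiredoxin, by 0.77 (adjusted p = 9.42e-06). Txnrd1, thioredoxin reductase, rose by 0.56 (adjusted p = 0.000517) and Hmox1, heme oxygenase, by 0.43 (adjusted p = 0.00203), both under 1.5-fold. Slc7a11, the cystine transporter, did not pass at 32 µM (log2 0.27, adjusted p = 0.156). The largest changes among those called were in the glutathione transferases Gsta1 (log2 3.28) and Gsta3 (2.89), genes of a family whose members share much sequence, so that reads may have been split among them.

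LPS alone also moved the targets: 17 were called higher and 2 lower, with a median log2 fold change of 0.66 against 0.003. Slc7a11 went from 63.1 ± 5.46 CPM to 867.4 ± 54.1 CPM (log2 3.78, adjusted p = 6.34e-08). Ephx1, an epoxide hydrolase (log2 -1.09, adjusted p = 0.000561), and Mgst2, a glutathione transferase (-0.70, adjusted p = 0.00145), fell. In the same comparison Nfe2l2 stood at -0.15, and at 32 µM it rose 1.34-fold.

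Among 20 other genes for ligase parts and regulators of Nrf2 stability, 0 were called higher and 1 lower at 32 µM. By unadjusted p 2 were higher and 7 lower, beside 22.2% of all genes in either direction. By adjusted p alone 0 were higher and 5 lower, beside 4.06% and 5.72% of all genes. The 5 were Trim21, Amer1, Sesn2, Syvn1 and Cdkn1a, the last 4 of which were named for having passed. Trim21, a ubiquitin ligase of the innate immune system, was at 17.0 ± 0.0992 CPM in DMSO, 74.7 ± 0.318 in DMSO + LPS and 34.0 ± 1.12 at 32 µM. It was called higher with LPS (log2 2.13, adjusted p = 1.97e-08) and lower at 32 µM against DMSO + LPS (-1.13, adjusted p = 5.83e-06). In the LPS comparison 4 were called higher and 3 lower, where 28.2% of all genes were called, including Syvn1, an endoplasmic reticulum ligase (0.91, adjusted p = 1.22e-06), and Sesn1, a sestrin (-1.70, adjusted p = 4.18e-07).

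Of 7 other factors of the CNC, Bach and large Maf families, 4 were tested. Maf, a large Maf with an activation domain, was at 0.891 ± 0.0101 CPM in DMSO, 3.88 ± 0.150 in DMSO + LPS and 0.819 ± 0.0308 at 32 µM. It was called higher with LPS (log2 2.12, adjusted p = 1.12e-05) and lower at 32 µM (-2.24, adjusted p = 7.91e-05).

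AP-1 and ATF factors share the basic leucine zipper fold and sites that resemble the ARE. With LPS 8 of 16 tested were called higher, as were 14.6% of all genes, and 0 lower. The rises were led by Fosl1 (log2 3.49, adjusted p = 7.15e-09) and Jdp2 (3.44, adjusted p = 3.31e-09). At any fold 10 were higher and 1 lower by adjusted p, beside 25.2% and 25.8% of all genes. At 32 µM 5 were higher and 1 lower by adjusted p at any fold, beside 4.06% and 5.72% of all genes. By unadjusted p 7 were higher and 2 lower, beside 22.2% of all genes in either direction. Of the 16, 0 were called higher and 1 lower, Batf2, an interferon-inducible factor (-1.67, adjusted p = 0.000653).

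Selective autophagy genes act with Sqstm1. With LPS 0 of 18 were called higher and 2 lower (Calcoco1, an autophagy receptor, -0.71, adjusted p = 0.00011, and Ulk1, the kinase that starts autophagy, -0.65, adjusted p = 5.45e-05), and 5 were higher and 3 lower at any fold by adjusted p, beside 25.2% and 25.8% of all genes. At 32 µM 0 were called. The adjusted p was passed by 0, beside 9.78% of all genes. An unadjusted p below 0.05 was found for 2 (1 higher, 1 lower), beside 22.2% of all genes. The median at 32 µM was 0.028 against 0.008 for all genes.

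Of the 32 proteasome subunits, known targets of Nrf1, 23 were called higher with LPS and 0 lower, with a median log2 fold change of 0.714. At any fold 31 were higher by adjusted p, beside 25.2% of all genes. Psma6 went from 168.4 ± 4.07 CPM to 397.8 ± 7.65 CPM (log2 1.24, adjusted p = 1.41e-07). At 32 µM 0 were called, 5 of 32 had an unadjusted p below 0.05, all lower, beside 22.2% of all genes in either direction, and Psma6 fell by adjusted p (-0.396, adjusted p = 0.000615). The median was -0.068. Of the 7 genes that process or degrade Nfe2l1 protein, Vcp, which extracts proteins from the membrane (0.72, adjusted p = 7.63e-05), was called higher with LPS and Ddi2, the protease that cleaves Nrf1 (-0.99, adjusted p = 2.4e-06), lower.

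Heme and iron genes under Bach1 were mixed. At 32 µM 2 of 9 were called higher, Blvrb, a biliverdin reductase (log2 0.95, adjusted p = 0.000941), and Slc48a1, a heme transporter (0.77, adjusted p = 6.41e-05). At any fold 5 rose and 1 fell by adjusted p, beside 4.06% and 5.72% of all genes. With LPS 4 were called higher, Hmox1 (1.295, adjusted p = 5.2e-07) among them, and 1 lower, Hebp1, which binds heme (-1.965, adjusted p = 2.61e-05). Blvra, the other biliverdin reductase, was the one that fell (-0.53, adjusted p = 0.00114), named for that. Hmox1, Fth1, Ftl1 and Blvrb count in both the Nrf2 and the heme list.

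**Figure D4:**
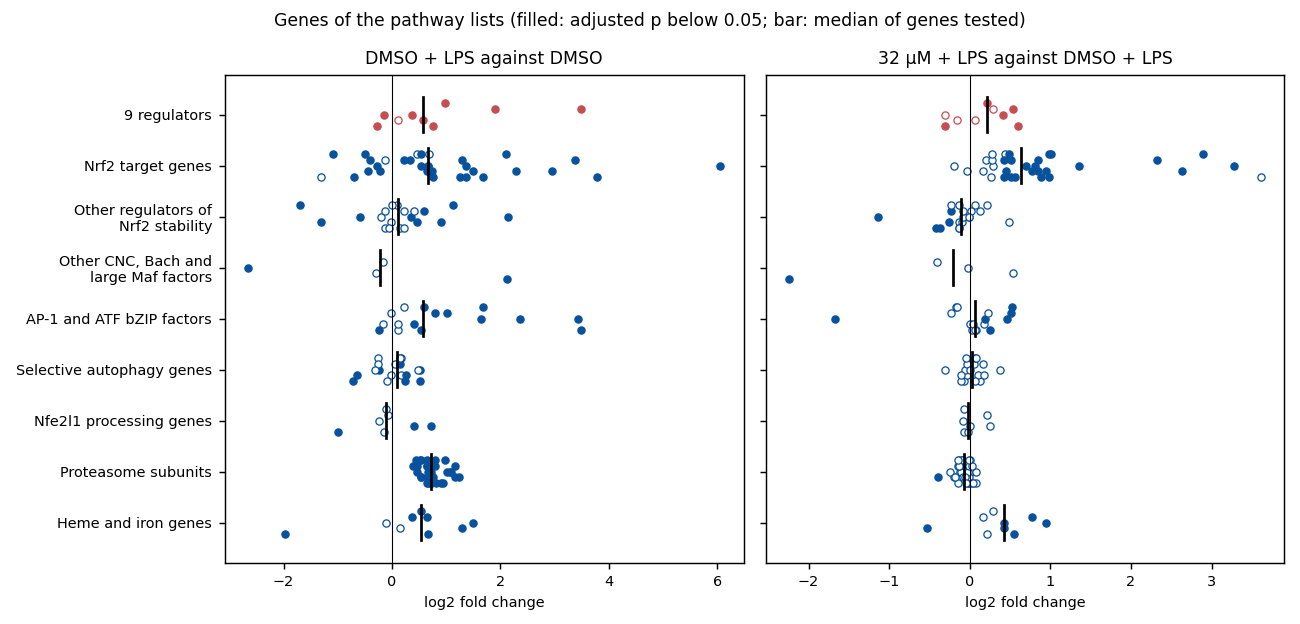
Log2 fold changes of the 9 regulators (red) and of the genes tested in each list (blue) for LPS (left) and 32 µM (right). Filled points have an adjusted p below 0.05 and the black bar is the median of the genes tested. At 32 µM the Nrf2 target genes have a median of 0.63, while the selective autophagy genes and proteasome subunits lie near 0.

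Genes with the most similar profile over the 10 libraries were listed for each regulator called in at least 1 comparison, among 9561 genes with a mean of at least 5 CPM. By Pearson's r of log2 CPM, Sqstm1 was closest to Tarm1 (r = 0.9993), Esd (0.9988) and Srxn1 (0.9987). Maff was closest to Pmp22 (0.9983), Mafg to Zdhhc18 (0.997) and Mafk to Cdkn1a (0.997). Bach1 was closest to Gclc (0.9927), D5Ertd579e (0.9839) and Pkp2 (0.9806). The libraries fall into an LPS and a non-LPS group, which by itself makes r high for genes that LPS changed, and the 10 points share sequencing depth and scaling, so these values are descriptions with no p.

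Some of the 9 genes overlap a neighbor, and the strand use of the counting is not given in the sources used here. Exons of Mafg share 124 bases with Sirt7 on the same strand, which held 2449 to 3735 counts per library and did not pass the test with LPS (log2 -0.08, adjusted p = 0.417) or at 32 µM (0.03, adjusted p = 0.879). Opposite-strand neighbors were low, with 6 to 25 counts for Gm16754 at Keap1, 23 to 79 for Mrnip at Sqstm1 and 0 to 2 for Tmem184a at Mafk.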

How the data were processed

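Poly(A) RNA libraries made with a directional kit were sequenced together as paired reads on 1 lane. The values deposited by the authors are raw, unnormalized counts of reads for each Ensembl gene and library. The submitters' processing notes name Trimmomatic, FastQC, STAR, DESeq2 and mm10, without versions; the counting tool, its strand setting and the annotation are not given in the sources used here. Symbols were found for 42548 of 43432 identifiers in GENCODE M21. Counts were filtered with filterByExpr (minimum count 10), scaled by TMM and fitted in edgeR 4.0.16 (R 4.3.3) with 1 mean per condition over all 10 libraries, leaving 5 residual degrees of freedom (prior 2.76, common biological coefficient of variation 0.128). Quasi-likelihood F tests were adjusted by Benjamini-Hochberg over 14172 genes, for 7 comparisons. Exact permutation of 2 against 2 libraries gives no p under 0.333; the tests therefore draw on a spread estimated over all conditions and genes. Sampling error of counts covers reads alone. Alternatives were other scalings, filters, tests (DESeq2 1.42.0), the replicate number as a block, the 4 libraries compared alone, and each library left out; leaving out both libraries with epithelial reads was chosen after seeing the data. The fit was checked on simulated counts. The members, gene lists and tests were chosen with earlier results of these data known. Genes named are the 9 members, up to 3 called genes of each list at either end with a mean of at least 1 CPM, and Nqo1, Hmox1, Gclm, Slc7a11, Txnrd1 and Srxn1. For 1 gene that the list counts include, which this rule would name, values are not reported here.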

Additional observations from a re-analysis of the deposited data

How the results depend on the processing

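Each of 63 log2 fold changes (9 genes in 7 comparisons) was recomputed under 19 alternatives. Counts of called genes moved by over 1.5 times when no fold was required, to 8 for LPS, 5 for 32 µM, 1 for 10 µM, 1 for 32 µM against 10 µM and 8 for 32 µM against DMSO, and at 32 µM the count was 0 without a count filter. Over the fits that left out 1 library, in which a condition's remaining library is taken to vary as the other groups do, counts ran from 4 to 5 for LPS and from 0 to 1 for 32 µM. Scaling by library totals alone turned the sign of Cul3 with LPS (-0.094), and of Keap1 (-0.144) and Cul3 (-0.024) at 32 µM against DMSO; it put the median of all genes at -0.202 with LPS and -0.181 at 32 µM against DMSO, from 0.003 and 0.019, and in the last left 1490 of 4288 calls higher, against 1964 of 3847. Leaving out both libraries with epithelial reads turned Maff at 10 µM (-0.054) and Cul3 from 10 to 32 µM (-0.003). With 1 library left out, 9 log2 fold changes, all without a call, changed sign: Cul3 (-0.041 to 0.071) and Maff (-0.054 to 0.192) at 10 µM, Nfe2l1 (-0.033 to 0.007) and Keap1 (-0.065 to 0.041) at 3.2 µM, Nfe2l1 (-0.061 to 0.015) and Cul3 (-0.016 to 0.097) from 10 to 32 µM, Cul3 (-0.085 to 0.015) and Maff (-0.216 to 0.042) from 3.2 to 10 µM, and Keap1 at 32 µM against DMSO (-0.028 to 0.111). Under the alternatives that kept every library or dropped both with epithelial reads, the 63 values gave 567 recomputed ones, of which 22 lost and 22 gained the threshold, several from the same gene and comparison.

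The labels do not say that a replicate number marks a shared culture or day, and replicate differences over 14172 genes correlated at 0.104 to 0.573 among DMSO, 3.2, 10 and 32 µM but at -0.169 to -0.066 with DMSO + LPS, so the numbers were not taken to pair the libraries. With the replicate block the counts stayed at 4 for LPS, 1 for 32 µM and 3 for 32 µM against DMSO, with Bach1 at 0.595 at 32 µM, and the threshold was also passed by Keap1 at 32 µM (-0.307, adjusted p = 0.035), Bach1 from 10 to 32 µM (0.329, adjusted p = 0.03) and Sqstm1 from 3.2 to 10 µM (0.232, adjusted p = 0.0401). Over all genes at 10 µM the block gave 174 calls, 77 of them higher, against 122 and 40. With 2 libraries per condition, calls near the threshold rest on few degrees of freedom. Calls over all genes moved by over 1.5 times for 10 µM, from 122 to 41 with the 4 libraries compared alone, 52 and 59 without replicate 1 or 2 of DMSO + LPS, 45 without both libraries with epithelial reads and 227 without 10 µM replicate 2. For 3.2 µM they moved from 0 to 8 by DESeq2, 3 by the likelihood ratio test and 66 with the 4 libraries alone, for 32 µM against 10 µM from 187 to 5 with the 4 libraries alone and 122 without the libraries with epithelial reads, and for 10 µM against 3.2 µM from 36 to between 0 and 66. Requiring a mean of at least 5 CPM, which tests fewer genes, left 2641 calls for LPS and 2547 for 32 µM against DMSO, from 3995 and 3847.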
